A study of Mus musculus with 9 samples.

Results

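Nlrp14, Nlrp9a, Nlrp9b, Nlrp4a and Nlrp4b are genes of the NLR family, pyrin domain containing, that are known from mouse oocytes. They were taken by symbol from the deposited gene counts, which held all 5 among 24454 genes, and all 5 passed the filter on low counts that left 16964 genes for testing. The values come from 9 RNA-seq libraries of ICR mouse embryos, an outbred stock, that had been cultured from the zygote to the 2-cell stage. Each library was made from 3 pooled embryos, with 3 libraries per group. The first group was loaded with glucose and treated with ZGW rat serum, the second was loaded with glucose only, and the third was the control. They are called ZGW serum, high glucose and control here. The labels do not spell out ZGW, give no glucose or serum dose, and do not say whether the embryos of the other groups received rat serum without the drug, so serum and drug cannot be told apart. They also do not say how many matings supplied the embryos, so the tests speak of the spread between these pools and not between matings.

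NLRP proteins typically carry an amino-terminal pyrin domain, a central NACHT domain that binds nucleotides, and leucine-rich repeats. Some members assemble inflammasomes, the complexes that activate caspase-1 in innate immunity, whereas another set, sometimes called the reproductive NLRPs, is expressed mainly in germ cells. Transcripts of this second set accumulate in the growing oocyte, and much of the maternal RNA is removed while the embryonic genome is switched on, which in mouse takes place largely at the 2-cell stage. In mouse, Nlrp14 is a maternal-effect gene whose protein has been reported to work with UHRF1, a regulator of DNA methylation, and with the mitochondrial sodium-calcium exchanger encoded by Slc8b1. Nlrp9a, Nlrp9b and Nlrp9c are rodent copies of a gene that is single in human, and Nlrp9b has been described in mouse intestine as a sensor of viral RNA that works with the helicase DHX9. Nlrp4a and Nlrp4b belong to the Nlrp4 group, which has also expanded in rodents and whose individual roles are mostly unassigned.

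In the GENCODE M21 annotation of GRCm38, all 5 genes lie on the plus strand of chromosome 7 and are protein coding. Nlrp14 spans chr7:107166990-107198102, far from the others. Nlrp4a spans chr7:26435113-26476142 and Nlrp9a spans chr7:26535023-26575615, with 58881 bases between them. Nlrp9c, on the minus strand, ends 31413 bases before the start of Nlrp4a. Nlrp9b spans chr7:19991465-20073306 and Nlrp4b spans chr7:10687789-10730168. RefSeq promoter windows on GRCm38.p6 were matched by symbol for 4 of the 5 members, Nlrp4a, Nlrp4b, Nlrp9a and Nlrp9b. The windows of Nlrp4a, Nlrp4b and Nlrp9a are shown because the first pair had the most identical bases of any windows of different members and because the window of Nlrp9a held other motif matches. Each covers 250 bases upstream of a RefSeq start on the plus strand, and capitals mark every match of CCAAT, of CANNTG and of TAATTG on either strand, with adjoining matches run together.
Nlrp4a, chr7:26435364-26435613: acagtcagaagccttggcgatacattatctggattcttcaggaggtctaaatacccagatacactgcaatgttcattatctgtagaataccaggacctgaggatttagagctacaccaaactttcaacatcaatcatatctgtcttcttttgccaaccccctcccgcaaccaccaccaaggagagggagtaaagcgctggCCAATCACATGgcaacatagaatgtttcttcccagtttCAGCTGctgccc
Nlrp4b, chr7:10687543-10687792: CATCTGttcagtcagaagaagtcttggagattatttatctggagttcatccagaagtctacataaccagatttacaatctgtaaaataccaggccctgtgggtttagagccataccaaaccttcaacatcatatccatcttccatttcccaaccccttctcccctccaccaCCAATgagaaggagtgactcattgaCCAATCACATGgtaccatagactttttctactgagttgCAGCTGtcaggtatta
Nlrp9a, chr7:26534773-26535022: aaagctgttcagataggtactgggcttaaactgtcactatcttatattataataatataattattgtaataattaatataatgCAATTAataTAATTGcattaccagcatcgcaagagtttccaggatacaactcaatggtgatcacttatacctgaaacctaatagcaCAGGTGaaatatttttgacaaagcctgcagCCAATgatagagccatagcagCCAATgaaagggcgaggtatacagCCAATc
CANNTG is the general form of the E-box, the kind of site read by basic helix-loop-helix factors such as FIGLA, and TAATTG is a core read by homeodomain factors such as NOBOX. The windows of Nlrp4a and Nlrp4b were identical at 182 of 234 aligned bases, or 77.8%. Against the other RefSeq window of Nlrp4b, chr7:10687571-10687820, that of Nlrp4a was identical at 169 of 216, or 78.2%. The Nlrp4a window shown lies inside the annotated span of the gene, and the other RefSeq window of Nlrp4a, chr7:26434863-26435112, which ends just before that span, was 48.9% and 54.2% identical to the windows of Nlrp4b. The longest identical run of the pair shown was CCAATCACATGG, in which a CCAAT match is followed directly by a CANNTG match, and its last base lay 39 bases before the start in Nlrp4a and 43 bases before it in Nlrp4b. That run of 12 bases occurred in 6 of the 32851 windows of the table, or 0.0183%. CCAAT followed directly by CANNTG, a form chosen after the run was seen, occurred in 149 windows, or 0.454%. Both counts include the windows that the run was taken from and the other, overlapping window of Nlrp4b. Neither share is therefore an independent measure of how rare the run is. The window of Nlrp9a held 3 matches of CCAAT, 1 of CANNTG and 2 of TAATTG. The window of Nlrp9b, which is not shown, also held matches of the last 2 of these motifs, so neither was particular to Nlrp9a. Of all windows of this length, 33.8% held CCAAT, 66.2% held CANNTG and 7.17% held TAATTG, so the first 2 motifs are common by themselves.

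The close relation of these genes bears on how far the counts can separate them. Over coding sequence, Nlrp9a and Nlrp9b were 84.2% identical, Nlrp9a and Nlrp9c 87.7%, Nlrp9b and Nlrp9c 83.2%, and Nlrp4a and Nlrp4b 78.4%. Nlrp14 was 62.7% to 65.8% identical to the 7 other coding sequences it was aligned with. The Nlrp9 and Nlrp4 members were about as far from each other, from 60.9% for Nlrp9a and Nlrp4a to 64.4% for Nlrp9b and Nlrp4b. Even the closer identities mostly leave short reads distinguishable, but some stretches are shared outright. The longest run shared by members covers coding bases 589 to 717 of both Nlrp9a and Nlrp9b on chromosome 7, 129 bases in all, shown here from GENCODE M21 because a short read inside it fits both genes equally.
Nlrp9a and Nlrp9b: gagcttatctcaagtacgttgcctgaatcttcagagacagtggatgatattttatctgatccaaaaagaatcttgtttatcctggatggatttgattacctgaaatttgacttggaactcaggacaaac
Of all 50-base stretches in the annotated transcripts, 6.07% of those of Nlrp9a, 7.79% of those of Nlrp9b and 2.63% of those of Nlrp4a also occurred in another gene. The share was 0 for Nlrp14 and for Nlrp4b. How reads matching several places were counted is not given in the sources used here, so the counts of Nlrp9a and Nlrp9b are uncertain to that extent. The annotated 3′ end of Nlrp9b also overlaps a processed pseudogene, Gm18877, on the same strand. No member had the same 9 counts as another gene of the table.

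The libraries held 11934924 to 16916343 counts. Levels are given as CPM, counts scaled to a library total of 1000000 after TMM scaling between libraries. On the first principal component of log2 CPM over the genes tested, which held 17.8% of the variance, control replicate 1 had the lowest score of the 9 libraries, -135.9, and ZGW serum replicate 3 the highest, 106.8, while the other 7 lay between -39.9 and 27.9. Fold changes of the members that rest on either library are given with and without it. All 13 genes of an oocyte and early-embryo list and all 10 of a transient 2-cell list had counts. So did all but 557 of the 24454 genes, so having counts does not by itself mark the kind of cell. The oocyte and early-embryo list, most of whose level came from Omt2a, Omt2b and Dppa3, summed to 98900 to 142033 CPM with ZGW serum, 44708 to 68470 under high glucose and 74126 to 90158 in control. The transient 2-cell list summed to 1658 to 3527 CPM with ZGW serum, 4869 to 9306 under high glucose and 3019 to 7474 in control. Both lists thus differed between ZGW serum and high glucose with no overlap of the libraries, the first higher and the second lower with ZGW serum. The sum of the first follows its few abundant genes, since 7 of its 13 genes had a fitted value above 0 and 6 below with ZGW serum against high glucose, and 6 above and 7 below under high glucose against control. Gdf9, an oocyte growth factor on that list, averaged 173.7 CPM with ZGW serum and 290.6 CPM under high glucose (edgeR adjusted p = 0.565). Of the 10 transient 2-cell genes, all 10 were below 0 with ZGW serum against high glucose. The first sum was also higher in all ZGW serum libraries than in all control libraries, and lower in all high glucose libraries than in all control libraries. The part of these lists in the members' values was not tested. A lower level in such pooled material may come from fewer cells that carry the transcript or from less RNA per cell, and these cannot be told apart.

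All 5 genes were detected in all 9 libraries, with 1583 to 3215 counts for Nlrp14, 1719 to 4203 for Nlrp9a, 105 to 1035 for Nlrp9b, 701 to 2198 for Nlrp4a and 93 to 453 for Nlrp4b. Levels of different genes are compared per kilobase of exon, as CPM per kilobase. On that scale Nlrp9a was highest, with 64.2 ± 17.8 CPM per kilobase (SD, n = 9 libraries), followed by Nlrp14 with 46.7 ± 15.6, Nlrp4a with 21.03 ± 9.21, Nlrp9b with 11.9 ± 6.13 and Nlrp4b with 5.34 ± 2.25 CPM per kilobase. The order held within libraries: Nlrp14 exceeded Nlrp4a, Nlrp4a exceeded Nlrp9b and Nlrp9b exceeded Nlrp4b in 9 of 9 libraries. Nlrp9a exceeded Nlrp14 in 8 of 9, the exception being ZGW serum replicate 3 with 43.9 against 59.1 CPM per kilobase. Nlrp9a and Nlrp14 were thus the only neighbours among the 5 whose order changed in a library.

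Their relatives covered a wider range. Nlrp9c averaged 342 CPM per kilobase over the 9 libraries and Nlrp4f, a gene of chromosome 13 whose protein belongs to the subcortical maternal complex, averaged 135 CPM per kilobase. Nlrp4e averaged 55.8 CPM per kilobase, a value of low certainty because 36.7% of its 50-base stretches occur in other genes, and Nlrp4g, annotated as a transcribed pseudogene, averaged 44.96. Nlrp5, the maternal-effect gene also known as Mater, averaged 10.3 CPM per kilobase, Nlrp2 averaged 5.14 and Nlrp4c averaged 1.86. The 5 genes described here therefore lay between Nlrp4f and Nlrp2 in level, with Nlrp4b near the bottom of the oocyte set.

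**Figure D1:**
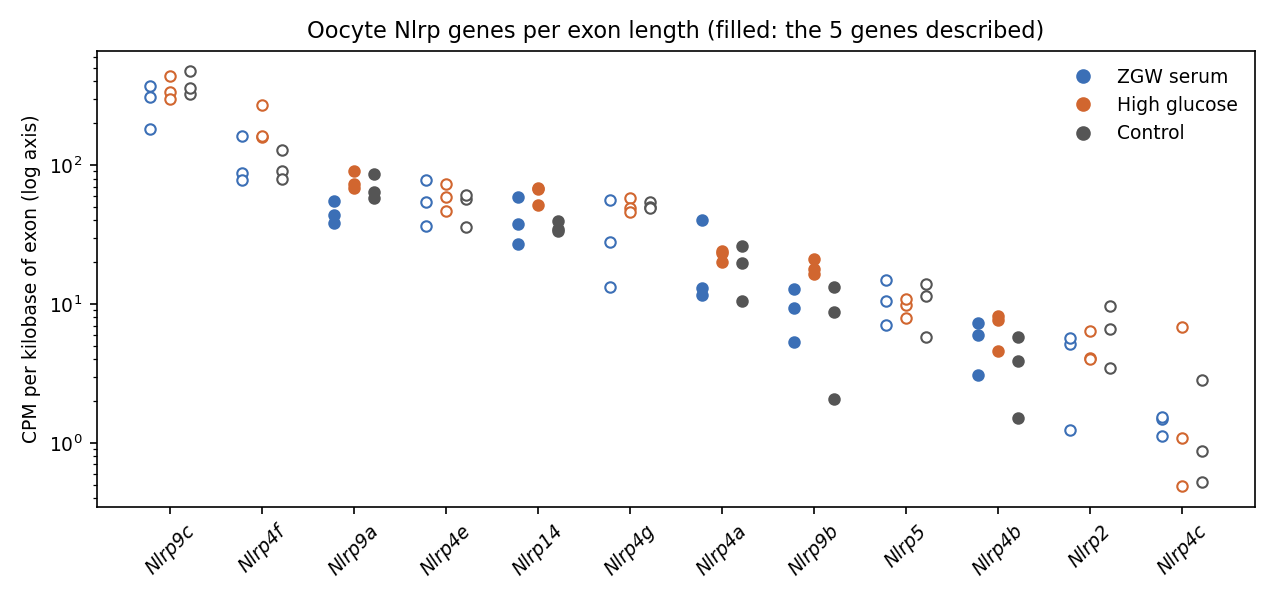
Level of 12 oocyte Nlrp genes in CPM per kilobase of exon on a log axis, with 1 point per library and groups by colour. Nlrp9c (mean 342) and Nlrp4f (mean 135) lie above Nlrp9a (mean 64.2), and the 5 described genes run down to Nlrp4b (mean 5.34).

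The genes differed in how steady they were among libraries of a group. The pooled within-group SD of log2 CPM was 0.27 for Nlrp9a and 0.36 for Nlrp14, against medians of 0.39 and 0.40 over tested genes of a similar level. It was 0.70 for Nlrp4a and 0.90 for Nlrp9b, against medians of 0.44 and 0.55 at their levels, which put both near the 90th percentile of such genes (89.5 and 90.1). For Nlrp9b, control replicate 1 had a log2 CPM of 2.97, against 5.04 and 5.64 in the other control libraries. For Nlrp4a, ZGW serum replicate 3 had 7.61, against 5.99 and 5.82 in the other ZGW serum libraries. Both SDs thus rest in part on 1 library each and were not computed without it. Nlrp4b, with an SD of 0.73 against a median of 0.67, was near the middle. Nlrp9a and Nlrp14 were thus the members in which a difference of a given size stood out most from the libraries' spread.

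Nlrp14 had 133.9, 95.8 and 208.9 CPM with ZGW serum (replicates 1, 2 and 3), 243.3, 239.6 and 183.5 CPM under high glucose, and 123.2, 118.0 and 140.4 CPM in control. The 3 high glucose libraries all lay above the 3 control libraries, and ZGW serum replicate 3 fell inside the high glucose range whereas replicates 1 and 2 lay below it. Nlrp9a had 193.2, 132.8 and 152.8 CPM with ZGW serum, 318.1, 254.4 and 237.5 CPM under high glucose, and 300.8, 200.2 and 222.7 CPM in control. Here the 3 ZGW serum libraries were the lowest of all 9, and the high glucose and control libraries overlapped. Nlrp9b had 34.9, 19.7 and 48.1 CPM with ZGW serum, 78.3, 67.1 and 61.3 CPM under high glucose, and 7.66, 32.7 and 49.7 CPM in control. The 3 high glucose libraries were the highest of all 9 for this gene, and control replicate 1 was far below every other library.

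Nlrp4a had 63.5, 56.2 and 195.4 CPM with ZGW serum, 117.4, 97.0 and 112.4 CPM under high glucose, and 51.2, 96.1 and 127.0 CPM in control. ZGW serum held both the highest library and a pair near the lowest, so its mean describes none of them. Nlrp4b had 26.9, 13.9 and 32.6 CPM with ZGW serum, 20.6, 34.4 and 37.0 CPM under high glucose, and 6.79, 17.5 and 26.1 CPM in control. The groups overlapped in every comparison for both Nlrp4 genes, and control replicate 1 was the lowest library for each.

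**Figure D2:**
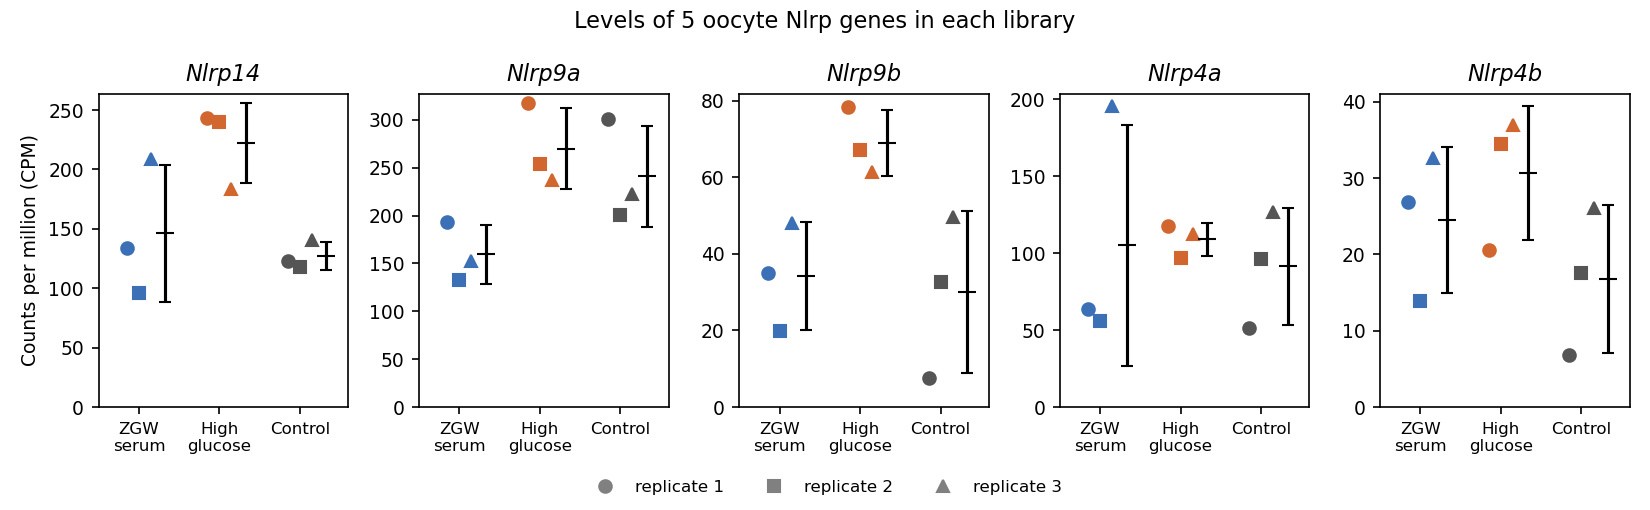
CPM of Nlrp14, Nlrp9a, Nlrp9b, Nlrp4a and Nlrp4b in each library, 1 panel per gene with its own axis from 0, with points for libraries and bars for the group mean ± SD (n = 3). The high glucose libraries of Nlrp14 (183.5 to 243.3 CPM) and Nlrp9b (61.3 to 78.3 CPM) lie above all control libraries, and the ZGW serum libraries of Nlrp9a (132.8 to 193.2 CPM) lie below all others.

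Set against each gene's mean log2 CPM over the 9 libraries, high glucose replicates 2 and 3 were above the mean for 5 of 5 genes and replicate 1 for 4 of 5. ZGW serum replicate 2 was below the mean for all 5 genes, by 0.62 to 0.91 on the log2 scale. Control replicate 1 was the most divided library, at -2.26 for Nlrp9b, -1.65 for Nlrp4b and -0.87 for Nlrp4a, yet at 0.48 for Nlrp9a. ZGW serum replicate 3 was at 1.06 for Nlrp4a and -0.50 for Nlrp9a. The 2 libraries that stood apart on the first principal component were thus also those in which the members differed most from each other.

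**Figure D3:**
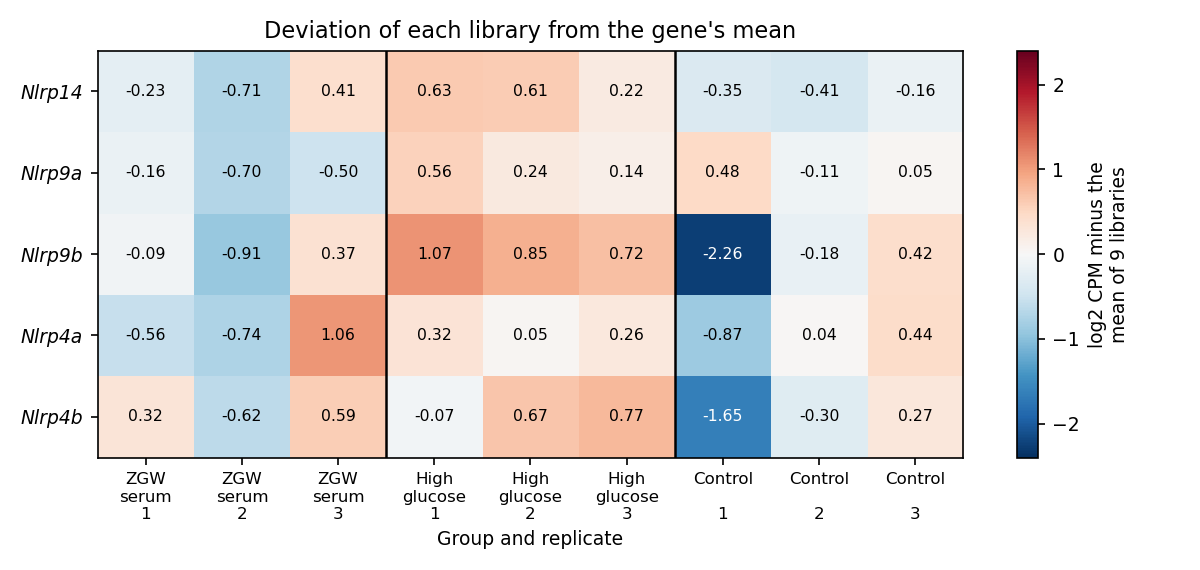
Log2 CPM of each gene in each library minus that gene's mean over the 9 libraries, with red above and blue below the mean. High glucose libraries are above the mean in 14 of 15 cells, ZGW serum replicate 2 is below it for all 5 genes, and control replicate 1 ranges from -2.26 for Nlrp9b to 0.48 for Nlrp9a.

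The first comparison asks how a glucose load alone was associated with these transcripts. All 5 genes had a higher fitted level under high glucose than in control, with a median log2 fold change of 0.80, against a median of -0.02 and 49% of genes above 0 over all genes tested. The largest fitted differences were those of Nlrp9b, Nlrp4b and Nlrp14. None passed edgeR's quasi-likelihood test after Benjamini-Hochberg adjustment over all genes, in a comparison in which 0 of the 16964 genes (0%) passed. At an unadjusted p under 0.05, edgeR gave 1253 genes, or 7.39%, and 1 of the 5 members, Nlrp14, was among them. By the other tools, limma-voom called 0 genes and DESeq2 called 204, again without a member.

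Nlrp14 averaged 222.1 ± 33.5 CPM under high glucose and 127.2 ± 11.7 CPM in control (SD, n = 3 each), a log2 fold change of 0.80 ± 0.30 (SE; 95% interval 0.13 to 1.47; edgeR adjusted p = 0.627). Nlrp9b averaged 68.9 ± 8.67 CPM under high glucose and 30.0 ± 21.1 CPM in control, a log2 fold change of 1.198 ± 0.58 (interval -0.08 to 2.48; edgeR adjusted p = 0.697). In these 2 of the 5 genes the libraries of the groups did not overlap, with high glucose higher, which was so for 6.84% of all genes tested, against 6.91% with high glucose lower and 13.7% in either direction. The value of Nlrp9b rests in part on control replicate 1: without it the log2 fold change was 0.74 (edgeR adjusted p = 0.808). That of Nlrp14 was 0.78 without the same library (edgeR adjusted p = 0.779).

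For the other 3 genes the groups overlapped. Nlrp4b averaged 30.6 ± 8.81 CPM under high glucose and 16.8 ± 9.67 CPM in control, with a log2 fold change of 0.87 ± 0.55 (interval -0.34 to 2.08; edgeR adjusted p = 0.774), and without control replicate 1 it was 0.49 (edgeR adjusted p = 0.904). Nlrp4a averaged 109.0 ± 10.6 CPM under high glucose and 91.4 ± 38.1 CPM in control, a log2 fold change of 0.25 ± 0.49 (interval -0.82 to 1.32; edgeR adjusted p = 0.945) that turned to -0.035 without control replicate 1. Nlrp9a averaged 270.0 ± 42.5 CPM under high glucose and 241.2 ± 52.8 CPM in control, a log2 fold change of 0.16 ± 0.26 (interval -0.41 to 0.74; edgeR adjusted p = 0.929). The common upper side of all 5 fold changes therefore held a wide range of certainty, and for Nlrp4a its direction depended on 1 library.

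The second comparison asks what ZGW serum added to the glucose load. It shares the high glucose libraries with the first, so a gene that happened to be high in those libraries tends to be higher in the one and lower in the other, and the 2 sets of values are not independent. All 5 genes had a lower fitted level with ZGW serum than under high glucose, with a median log2 fold change of -0.60, against 0.00 over all genes tested, of which 50.1% were above 0. No member passed edgeR's quasi-likelihood test over all genes, in which 0 genes (0%) passed. At an unadjusted p under 0.05, edgeR gave 1473 genes (8.68%), with Nlrp9a, 1 of the 5 members, among them. Limma-voom called 0 genes and DESeq2 called 315, none of them a member.

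Nlrp9a averaged 159.6 ± 30.8 CPM with ZGW serum and 270.0 ± 42.5 CPM under high glucose, a log2 fold change of -0.76 ± 0.26 (interval -1.34 to -0.18; edgeR adjusted p = 0.493). Nlrp9b averaged 34.2 ± 14.2 CPM with ZGW serum and 68.9 ± 8.67 CPM under high glucose, a log2 fold change of -1.01 ± 0.58 (interval -2.28 to 0.27; edgeR adjusted p = 0.666). The libraries of the groups did not overlap for these 2 of the 5 genes, both lower with ZGW serum, as was so for 8.26% of all genes tested, against 9.08% with ZGW serum higher and 17.3% in either direction. Without ZGW serum replicate 3 the log2 fold change was -0.70 for Nlrp9a and -1.31 for Nlrp9b, with edgeR adjusted p of 0.670 for Nlrp9a and 0.709 for Nlrp9b.

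Nlrp14 averaged 146.2 ± 57.5 CPM with ZGW serum and 222.1 ± 33.5 CPM under high glucose, a log2 fold change of -0.60 ± 0.30 (interval -1.27 to 0.06; edgeR adjusted p = 0.610). The overlap came from ZGW serum replicate 3, without which the log2 fold change was -0.93 (edgeR adjusted p = 0.655). Nlrp4b averaged 24.5 ± 9.58 CPM with ZGW serum and 30.6 ± 8.81 CPM under high glucose, a log2 fold change of -0.32 ± 0.54 (interval -1.53 to 0.88; edgeR adjusted p = 0.911). Nlrp4a averaged 105.1 ± 78.3 CPM with ZGW serum and 109.0 ± 10.6 CPM under high glucose, a log2 fold change of -0.05 ± 0.48 (interval -1.12 to 1.02; edgeR adjusted p = 0.990). Its value was set by 1 library, since without ZGW serum replicate 3 it was -0.84 (edgeR adjusted p = 0.688). With control replicate 1 and ZGW serum replicate 3 both left out, 4 of the 5 members had an unadjusted edgeR p under 0.05. In that fit 1391 of 17616 genes did, and none passed after adjustment. This was the highest such number of members over the alternatives for this comparison. It was 1 with all libraries, and 0 without high glucose replicate 1 or without ZGW serum replicate 2.

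The third comparison sets ZGW serum against control, and it shares the ZGW serum libraries with the second and the control libraries with the first. Nlrp9a was the gene that differed most clearly, with 159.6 ± 30.8 CPM with ZGW serum and 241.2 ± 52.8 CPM in control. Its log2 fold change was -0.60 ± 0.26 (interval -1.17 to -0.02; edgeR adjusted p = 0.494), and its groups did not overlap, as was so with ZGW serum lower for 7.3% of all genes tested, with ZGW serum higher for 9.02% and in either direction for 16.3%. Without control replicate 1 it was -0.41 (edgeR adjusted p = 0.715), and without ZGW serum replicate 3 it was -0.54 (edgeR adjusted p = 0.708). The other 4 genes had fitted levels slightly above control, with overlapping groups.

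Nlrp14 averaged 146.2 ± 57.5 CPM with ZGW serum and 127.2 ± 11.7 CPM in control, a log2 fold change of 0.20 ± 0.30 (interval -0.47 to 0.87; edgeR adjusted p = 0.866). For Nlrp9b it was 0.19 ± 0.57 (interval -1.08 to 1.45), for Nlrp4a 0.20 ± 0.49 (interval -0.87 to 1.27) and for Nlrp4b 0.54 ± 0.55 (interval -0.66 to 1.75), with edgeR adjusted p of 0.943, 0.929 and 0.782. These signs were not stable: without ZGW serum replicate 3 the log2 fold change was -0.12 for Nlrp14, -0.12 for Nlrp9b and -0.59 for Nlrp4a. Without control replicate 1 it was -0.27 for Nlrp9b and -0.09 for Nlrp4a. The median over the 5 genes was 0.20, against 0.00 over all genes tested, of which 50% were above 0, and it was -0.35 with both libraries left out. In this comparison edgeR called 0 genes (0%) after adjustment and gave 1673 (9.86%) at an unadjusted p under 0.05, with Nlrp9a again, 1 of the 5 members, among them, while limma-voom called 1 gene and DESeq2 called 455, none of them a member.

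**Figure D4:**
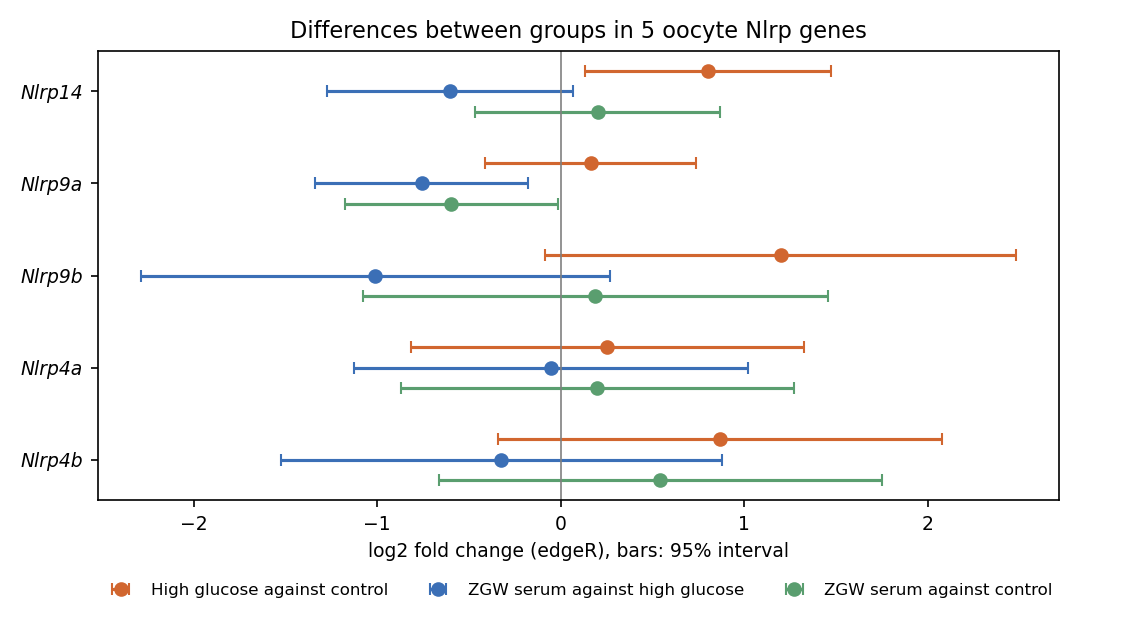
Log2 fold change of each gene with its 95% interval from edgeR's quasi-likelihood fit in the 3 comparisons, with 0 marked. The interval clears 0 for Nlrp14 in high glucose against control (0.13 to 1.47), for Nlrp9a in ZGW serum against high glucose (-1.34 to -0.18) and for Nlrp9a in ZGW serum against control (-1.17 to -0.02), none of which passed after adjustment over all genes.

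The 3 Nlrp9 copies did not keep a fixed ratio to each other. Nlrp9a made up 7.48% to 10.8% of the counts of the 3 copies with ZGW serum, 10.7% to 11.5% under high glucose and 9.24% to 9.68% in control. Nlrp9b made up 1.44% to 2.35% with ZGW serum, 2.64% to 2.97% under high glucose and 0.247% to 2.06% in control. Nlrp9c held the rest, at 87.6% to 90.6% with ZGW serum, 85.5% to 86.7% under high glucose and 88.7% to 90.1% in control. Nlrp9c therefore had its lowest share of the 3 copies in all 3 high glucose libraries, and Nlrp9b had its highest.

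Nlrp9c itself averaged 1703 ± 569 CPM with ZGW serum, 2107 ± 421 CPM under high glucose and 2283 ± 460 CPM in control, with a log2 fold change of -0.12 for high glucose against control and -0.31 for ZGW serum against high glucose, at edgeR adjusted p of 0.965 and 0.816. Since Nlrp9c is far more abundant, its reads could in principle be counted for a copy. In control replicate 1, where Nlrp9c had the most counts of any library (38341), Nlrp9b had only 105, or 0.274% as many, and under high glucose it had 3.04% to 3.47% as many. Of the 50-base stretches of Nlrp9c, 1.22% occur in Nlrp9b. The part of shared reads in the Nlrp9b values was not tested. With Nlrp9a and Nlrp9b summed to 1 row, the log2 fold change was 0.32 for high glucose against control (edgeR adjusted p = 0.821), a sum in which Nlrp9a holds most of the counts, and -0.81 for ZGW serum against high glucose (edgeR adjusted p = 0.463).

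Among the other oocyte NLR genes, 7 of the 9 on the list were in the table and tested. Under high glucose against control, 4 of the 7 had a fitted value above 0 and 3 below, with a median log2 fold change of 0.01, and with ZGW serum against high glucose 1 was above 0 and 6 below, with a median of -0.31. Nlrp4f was the one with an unadjusted p under 0.05. It had 340.2, 299.9 and 627.9 CPM with ZGW serum, 1042, 619.5 and 627.1 CPM under high glucose, and 350.7, 308.9 and 494.0 CPM in control. Its libraries under high glucose all lay above those in control, as for Nlrp14 and Nlrp9b, with a log2 fold change of 0.99 ± 0.35 (edgeR adjusted p = 0.627). With ZGW serum against high glucose Nlrp4f had a log2 fold change of -0.85 ± 0.35 (edgeR adjusted p = 0.553), with ZGW serum replicate 3 inside the high glucose range as for Nlrp14.

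None of the remaining genes of that list had an unadjusted p under 0.05. Nlrp4e averaged 191.8 CPM with ZGW serum, 203.5 under high glucose and 174.0 in control. Nlrp4g averaged 67.0 CPM with ZGW serum, 105.9 under high glucose and 105.5 in control. Nlrp5 averaged 52.5 CPM with ZGW serum, 46.3 under high glucose and 50.3 in control. The groups of these genes and of Nlrp2, which averaged 14.1 CPM with ZGW serum, 16.99 under high glucose and 23.0 in control overlapped in all comparisons. Nlrp4c averaged 5.52 CPM with ZGW serum, 11.2 under high glucose and 5.67 in control, with log2 fold changes close in size to those of Nlrp4f in 1 of the 2 comparisons given here and larger in the other, but with wider errors. They were 0.98 ± 0.99 for high glucose against control and -1.02 ± 0.99 for ZGW serum against high glucose, at edgeR adjusted p of 0.878 and 0.820, and its groups overlapped. Unlike that of Nlrp4f, the higher mean of Nlrp4c under high glucose came from replicate 1 alone, at 27.2 CPM. Replicates 2 and 3 had 4.39 and 1.96 CPM, against 2.12 to 11.4 CPM in control. Over all other genes of the table with an Nlrp or Nlrc symbol, 18 in number, 13 were tested, of which 6 had a fitted value above 0 and 7 below under high glucose against control (median log2 fold change -0.0127). With ZGW serum against high glucose 3 of the 13 were above 0 and 10 below (median -0.27), and with ZGW serum against control 4 were above and 9 below (median -0.32).

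Genes linked to the 5 by function were looked at as lists. The subcortical maternal complex, an oocyte assembly needed for the first cleavages, was listed as Ooep, Tle6, Khdc3, Padi6, Zbed3, Nlrp5 and Nlrp2, without Nlrp4f, whose values are given above. All 7 of these genes were tested, with 4 above 0 and 3 below under high glucose against control (median log2 fold change 0.00) and 5 above and 2 below with ZGW serum against high glucose (median 0.18). Its member Zbed3 averaged 7808 CPM with ZGW serum and 4136 CPM in control (log2 fold change 0.92, edgeR adjusted p = 0.434). Of the reported partners of Nlrp14, Uhrf1 averaged 118.2 CPM with ZGW serum, 170.1 under high glucose and 175.8 in control. Its log2 fold change was -0.05 for high glucose against control and -0.53 for ZGW serum against high glucose, at edgeR adjusted p of 0.990 and 0.747. The high glucose libraries of Uhrf1, at 135.0 to 201.2 CPM, overlapped those of control, at 141.6 to 238.9 CPM, unlike those of Nlrp14. Slc8b1 was near the limit of detection, with a mean of 0.561 CPM with ZGW serum, 0.487 under high glucose and 0.859 in control. Dhx9, the helicase partner of Nlrp9b in mouse intestine, averaged 12.2 CPM with ZGW serum, 14.9 under high glucose and 9.88 in control, with overlapping groups.

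Inflammasome genes were scarce as a set. All 23 listed genes were in the table and 14 passed the filter, and the list summed to 50.8 to 56.9 CPM with ZGW serum, 45.3 to 56.5 under high glucose and 33.1 to 52.2 in control, whereas the 5 oocyte genes alone summed to 318 to 638 CPM with ZGW serum, 632 to 778 under high glucose and 465 to 566 in control. Most of the mean sum of the inflammasome list came from Nlrc4 and Naip1, which averaged 17.2 and 14.0 CPM over the 9 libraries. Per kilobase of exon they averaged 3.58 and 2.53 CPM, between Nlrp2 and Nlrp4c. Of the 14 that passed the filter, 8 had a fitted value above 0 and 6 below under high glucose against control. Naip5 and Naip6, receptors for bacterial flagellin, had an unadjusted p under 0.05 there at mean levels of 1.35 and 3.04 CPM under high glucose, against 0.319 and 0.0973 CPM in control (edgeR adjusted p = 0.672 and 0.627). With ZGW serum against high glucose, Naip6 averaged 0.302 against 3.04 CPM and Nlrx1, a mitochondrial NLR protein, averaged 3.96 against 1.01 CPM (edgeR adjusted p = 0.553 and 0.561).

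Transcription factors of the oocyte gave no common direction. Of 8 listed genes 7 were tested, of which 2 had a fitted value above 0 and 5 below under high glucose against control, and 3 above and 4 below with ZGW serum against high glucose. Nobox, a homeodomain factor of oocytes, averaged 40.1 CPM with ZGW serum and 113.6 CPM under high glucose (log2 fold change -1.50, edgeR adjusted p = 0.533). Lhx8, a LIM homeodomain factor of early oocytes, averaged 59.8 CPM with ZGW serum and 27.6 CPM under high glucose (log2 fold change 1.12, edgeR adjusted p = 0.486). Both have known roles in oocytes of the ovary.

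The genes whose log2 CPM followed each member most closely over the 9 libraries were taken from 6895 genes that averaged 10 CPM or more. These likenesses are descriptions, since the points share libraries, depth and group differences, and so many candidates over 9 points yield high values. For Nlrp14 they were Ttk, a spindle checkpoint kinase (Pearson r = 0.966), Dync1i2, a dynein intermediate chain (r = 0.936), and Ppp1r7, a regulatory subunit of protein phosphatase 1 (r = 0.925). For Nlrp9a they were Ddx58, which encodes the RNA sensor RIG-I (r = 0.959), Tpp2, a peptidase (r = 0.955), and Tchh (r = 0.954). For Nlrp9b they were Trim23 (r = 0.966), Mipep, a mitochondrial peptidase (r = 0.965), and Raph1 (r = 0.961). Rbm18 (r = 0.957), Ccnb1, which encodes cyclin B1 (r = 0.946), and Champ1 (r = 0.946) were closest to Nlrp4a. Ncoa6, a nuclear receptor coactivator (r = 0.961), Ccno, a cyclin (r = 0.961), and Tspan31 (r = 0.950) were closest to Nlrp4b. No gene was named for more than 1 member.

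Ttk and Dync1i2 showed what this likeness looks like. Ttk averaged 89.2 CPM with ZGW serum, 148.9 under high glucose and 75.6 in control. Dync1i2 averaged 156.6 CPM with ZGW serum, 263.5 under high glucose and 159.1 in control. Both were thus highest under high glucose, as Nlrp14 was. Ddx58, closest to Nlrp9a, averaged 49.9 CPM with ZGW serum, 96.5 under high glucose and 75.3 in control, lowest with ZGW serum as Nlrp9a was. Among the members themselves the closest pair was Nlrp9b with Nlrp4b (r = 0.886, Spearman's rho = 0.683), and Nlrp9a followed none of the others closely, with r from -0.16 with Nlrp4b to 0.45 with Nlrp14. Both Nlrp9b and Nlrp4b were lowest in control replicate 1.

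Markers of other cells made up a small part of the counts. A cumulus and granulosa list of 12 genes summed to 17.3 to 23.1 CPM with ZGW serum, 26.6 to 42.0 under high glucose and 23.3 to 39.3 in control. Most of that sum came from Nr5a2, which embryos are also known to express, at a mean of 15.5 CPM with ZGW serum, 24.2 under high glucose and 17.8 in control. Amh on the same list averaged 1.59 CPM with ZGW serum, 0.732 under high glucose and 0.538 in control, with the ZGW serum libraries highest. The granulosa genes Fshr, Foxl2 and Inha did not exceed 1.49 CPM in any library, but others on the list did. Cyp19a1, a granulosa gene, averaged 1.06 CPM with ZGW serum, 2.65 under high glucose and 6.96 in control, with a highest control library of 17.3. Tnfaip6 reached 7.59 CPM and Has2 3.29 CPM in control, and Star reached 3.78 CPM under high glucose. A blood list of 8 genes summed to 323 to 533 CPM with ZGW serum, 89.9 to 307 under high glucose and 234 to 357 in control, nearly all of it from the alpha-globin genes Hba-a1 and Hba-a2, which had equal counts. The beta-globin genes Hbb-bs and Hbb-bt averaged at most 0.188 CPM in any group, and the leukocyte gene Ptprc had 1 count in all libraries together. Cd68 and Lyz2, also on that list, were higher. Cd68 had 2.77 to 13.4 CPM over the libraries. Lyz2 averaged 3.68 CPM with ZGW serum, 1.04 under high glucose and 0.637 in control. A stroma and epithelium list of 11 genes summed to 28.7 to 76.4 CPM with ZGW serum, 65.1 to 116 under high glucose and 103 to 202 in control. Most of its mean came from Epcam, Cdh1 and Krt18. Epcam averaged 13.1 CPM with ZGW serum, 38.4 under high glucose and 72.6 in control. In the same order Krt18 averaged 2.66, 10.5 and 30.8 CPM, but Cdh1 17.5, 25.8 and 18.8 CPM. Col1a2, Col3a1 and Dcn did not exceed 1.54 CPM in any library, whereas Col1a1 reached 6.43, Lum 12.1 and Vim 18.7 CPM. The cumulus and granulosa sum was lower, and the blood sum higher, in all ZGW serum libraries than in all high glucose libraries, as with the lower values of Nlrp9a and Nlrp9b. The cumulus and granulosa sum and the stroma and epithelium sum were also lower in all ZGW serum libraries than in all control libraries, as Nlrp9a was. The part of these lists in the members' values was not tested.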

How the data were processed

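The authors deposited unnormalised whole-number counts per gene symbol for 9 libraries. The submitters' processing notes name Trim Galore and mm10. The aligner, counter, strand setting and handling of multi-mapping reads were not given in the sources used here. Groups and replicate numbers are those of the labels. The members, the gene lists and the alternatives were chosen with earlier results of these data known.

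Deposited counts were tested with the quasi-likelihood method of edgeR (version 4.0.16 under R 4.3.3). All 9 libraries entered one model with a mean for each group, TMM factors, robust estimation and the default low-count filter (minimum 10). P-values were adjusted by Benjamini-Hochberg across 16964 genes, and 0.05 was the threshold. The procedure was checked on simulated counts with planted changes far larger than any fitted difference of the members. That check therefore does not show whether differences of the members' size would be found. CPM are relative to the TMM-scaled total, with a prior count of 2 for log2 CPM. Lengths and transcript sequence came from GENCODE M21 (GRCm38, the assembly of mm10). The alternatives changed the size factors to RLE, the tool to DESeq2 1.42.0 or to limma-voom with quality weights (limma 3.58.1), and the count filter. They also fitted only the groups compared, added a replicate block, summed paralog pairs or left out libraries.

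Named were all members, the 3 genes most correlated with each, other oocyte Nlrp genes averaging at least 10 CPM, and genes of the lists chosen by function, but not of the marker lists, with an unadjusted p under 0.05. The other genes named with values, such as Uhrf1, Slc8b1, Dhx9, Nlrp4c and the single marker genes, were added after their values were seen.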

Additional observations from a re-analysis of the deposited data

How the results depend on the processing

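Over 18 alternatives and 3 comparisons the 5 genes gave 270 fold changes, of which 254 kept their direction and 16 reversed, and none was called under any alternative. Summing the Nlrp9a and Nlrp9b counts turned Nlrp9b with ZGW serum against control to -0.49, and limma-voom turned Nlrp4a there to -0.13. Leaving out 1 library gave 0 genes called in every comparison. It took ZGW serum against control for Nlrp4a from -0.59 to 0.48, for Nlrp9b from -0.27 to 0.73 and for Nlrp14 from -0.12 to 0.40, and Nlrp4a under high glucose against control from -0.035 (without control replicate 1) to 0.53. Nlrp4b with ZGW serum against control was up to 0.97 without control replicate 3. Nlrp4a with ZGW serum against high glucose ranged from -0.84 to 0.25, reversing without ZGW serum replicate 1 (0.21) or 2 (0.25) or high glucose replicate 1 (0.0017). With control replicate 1 and ZGW serum replicate 3 both left out, ZGW serum against control was -0.87 for Nlrp4a, -0.57 for Nlrp9b, -0.15 for Nlrp14 and -0.0702 for Nlrp4b, Nlrp4a under high glucose against control was -0.041, and the median of the 5 genes with ZGW serum against control was -0.35. The causes were not tested. Nlrp14 under high glucose against control stayed between 0.72 and 0.93 over the alternatives (adjusted p from 0.310 to 0.845) and Nlrp9a with ZGW serum against high glucose between -0.92 and -0.63 (adjusted p from 0.122 to 0.851).

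DESeq2, run on all 23897 genes with a count, called 204 genes for high glucose against control, 315 for ZGW serum against high glucose and 455 for ZGW serum against control. Limma-voom, no filter, and a filter of at least 10 counts in 6 libraries called 1 gene in the last comparison. The values do not settle whether the replicate numbers pair the libraries. Of 9 same-number pairs, 1 had correlated deviations above 0.1. Same-number pairs ranged from -0.0334 to 0.169, against -0.149 to 0.0855 for different numbers, over 7535 genes. Yet 7 of 9 libraries correlated best with their own number. With the replicate block edgeR called 0 genes in each comparison, with 1198, 1459 and 1626 at an unadjusted p under 0.05. With 3 libraries per group the 95% intervals are wide.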
